A study of Drosophila melanogaster with 14 samples.

Results

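In flies of the dCTCFdelta705-733 line, the peaks of 2 chromatin proteins, dCTCF and CP190, were set against each other. The peaks were all 3812 rows of 2 lists, 648 from the dCTCF antibody and 3164 from the CP190 antibody, out of 8279 rows in the 6 peak lists of the series. The members were taken by antibody and genotype alone, so that no measured value decided which peaks were included. The series profiled whole adult Drosophila melanogaster aged 2 to 3 days by ChIP-seq, in which the DNA recovered with an antibody is sequenced. The deletion line lacks residues 705 to 733 of dCTCF, the comparison genotype is labelled dCTCFwt, and the labels name Oregon-R as the strain of both and record no other allele or treatment. Chromatin of each genotype was recovered with a rat antibody to dCTCF or a mouse antibody to CP190, with 2 replicate libraries each, and a mouse antibody to the HA tag was used in the same way, in samples named HA_dCTCF. The control libraries, PI_rat for dCTCF and PI_mouse for CP190 and HA, are 1 library each, labelled wt and used for both genotypes, and the protocol lists rat and mouse IgG. The dCTCF and CP190 lists therefore do not share a control. Whole flies mix all tissues, so a dCTCF and a CP190 peak at one place need not come from the same cells.

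dCTCF is the fly homologue of CTCF, a zinc-finger protein that binds DNA directly and is best known for marking boundaries between regulatory domains, among them those of the bithorax complex. CP190 carries a BTB domain and zinc fingers and is found on chromatin together with several DNA-binding insulator proteins, such as dCTCF, Su(Hw), BEAF-32 and Pita. The title of the series concerns the ability of dCTCF to function independently of CP190. The question addressed here is how far dCTCF and CP190 occupied the same places once part of dCTCF was missing.

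Each antibody and genotype has 1 list made from both replicates, so there is no spread between replicates, and no test between antibodies or genotypes was possible. Read counts are not part of the lists, so that the depth of the libraries is unknown. Shares carry 95% Wilson intervals over peaks, medians carry 95% intervals from the binomial ranks of the values, and both cover counting error only. Each list holds 2 sets of calls for the same peaks, and the files do not say whether these are the 2 replicates. The distance between the summits of the 2 sets served as the measure of how exactly a summit was placed. Fold enrichment is the authors' own ratio of ChIP to control and was used only to rank peaks within a list. The dCTCF list of the deletion line ended at a global irreproducible discovery rate (IDR, a measure of how poorly a peak repeats between the 2 sets) of 0.05, and the CP190 list at 0.01.

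About as many dCTCF peaks of the deletion line carried a CP190 peak as did not. Of the 648 dCTCF peaks, 341 overlapped a CP190 peak by at least 1 bp, which is 52.6% (interval 48.8 to 56.4), and 307 did not. CP190 peaks covered 2.30% of the length of the chromosome arms. Coverage is a share of length, so here and below it is not the share of peaks that would overlap by chance. In the other direction, 344 of the 3164 CP190 peaks overlapped a dCTCF peak, which is 10.9% (9.83 to 12.0), against a dCTCF coverage of 0.544% of the arms. Most CP190 peaks of this line, 2820 of them, therefore had no dCTCF peak. The overlaps formed 346 pairs, with 4 dCTCF peaks that touched more than 1 CP190 peak and 2 CP190 peaks that touched more than 1 dCTCF peak. In wild type, the same count gave 425 of 700 dCTCF peaks (60.7%, 57.0 to 64.3) and 427 of 2517 CP190 peaks (16.96%, 15.5 to 18.5). The deletion line thus had the lower share by both counts. Its CP190 list was the longer one and its dCTCF list the shorter, and both lengths enter the share of CP190 peaks with dCTCF. With each CP190 list cut to the length of its dCTCF list, 16.98% of dCTCF peaks had CP190 in the deletion line and 27.6% in wild type. The shares of the 2 genotypes rest on 1 list each, and their difference could not be tested.

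Whether a dCTCF peak had a CP190 partner went with its strength. The list was divided by fold enrichment into 4 equal groups of 162 peaks, group 1 the weakest and group 4 the strongest. In groups 1 to 4, 56, 51, 95 and 139 peaks had a CP190 peak. These counts are 34.6% (27.7 to 42.2), 31.5% (24.8 to 39.0), 58.6% (50.9 to 65.9) and 85.8% (79.6 to 90.3), read against 52.6% over the whole list. Groups 1 and 2 were level within their intervals, and groups 3 and 4 were each higher. In wild type the same division gave 34.9%, 37.1%, 77.7% and 93.1%. The share of group 1 was thus within the interval of wild type (28.2 to 42.2). In group 3 the interval was 50.9 to 65.9 in the deletion line and 71.0 to 83.2 in wild type. The wild-type intervals of group 2 (30.3 to 44.5) and group 4 (88.4 to 96.0) overlapped those of the deletion line. These intervals cover counting error over the peaks of 1 list per genotype, and the genotypes were not tested against each other. In the CP190 list of the deletion line, the share with dCTCF ran from 7.21% (5.60 to 9.22) in group 1 to 16.1% (13.7 to 18.8) in group 4, against 9.22% and 29.5% (26.1 to 33.2) in wild type.

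**Figure D1:**
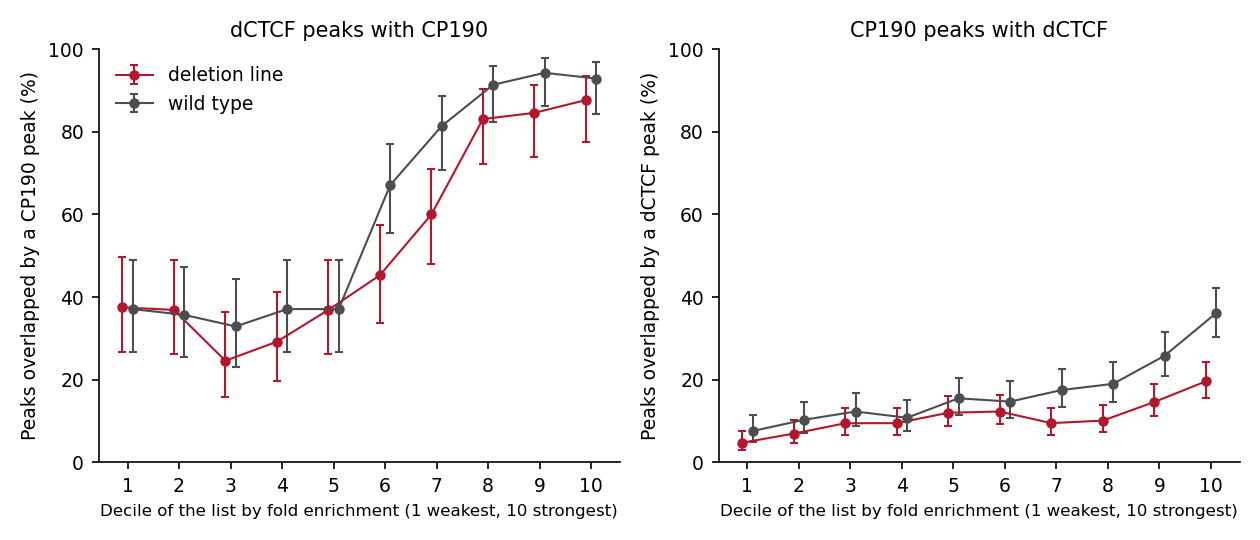
Share of peaks with a partner, in percent with 95% Wilson intervals, by decile of the list from the weakest to the strongest fold enrichment, for dCTCF peaks with a CP190 peak (left) and CP190 peaks with a dCTCF peak (right), in the deletion line (red) and wild type (grey). In the deletion line the left panel runs between 24.6% and 45.3% in deciles 1 to 6 and reaches 87.7% in decile 10, and the right panel reaches 19.6% in decile 10, against 36.1% in wild type.

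Among overlapping pairs, the ranks in the dCTCF and CP190 lists were only loosely related. Over the 346 pairs of the deletion line, Spearman's rho between the dCTCF and CP190 fold enrichments was 0.265, and over the 431 wild-type pairs it was 0.323. This is a description over sites that share chromatin of the same flies, and neighbouring sites are not independent. The dCTCF peaks with CP190 had a median place of 203 of 648, against 423 for those without. CP190 peaks with dCTCF had a median place of 1276 of 3164, against 1620 for those without. The dCTCF peak of place 3, for example, had a CP190 partner of place 1272 only.

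**Figure D2:**
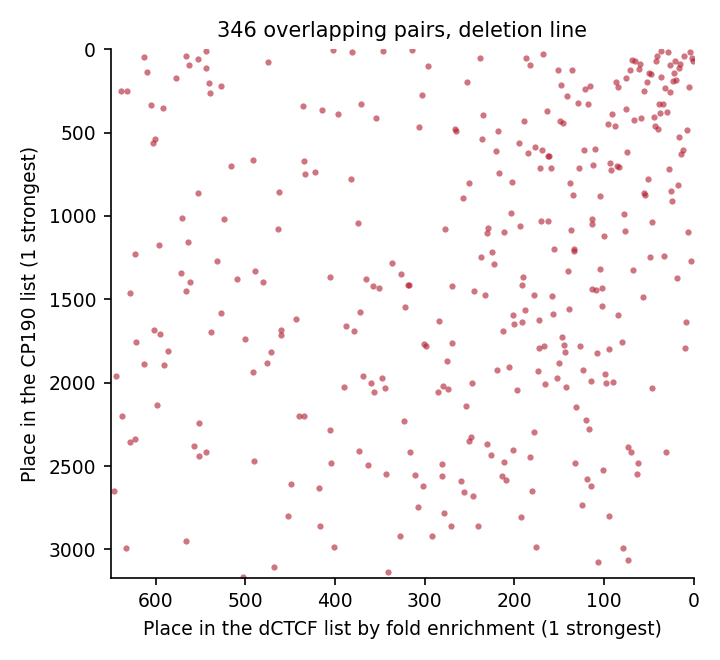
Each point is 1 of the 346 overlapping pairs of the deletion line, placed by its rank by fold enrichment in the dCTCF list (horizontal, strongest at the right) and in the CP190 list (vertical, strongest at the top). Points lie densest toward the right, where dCTCF is strong, and spread over the whole range of CP190 ranks there (rho 0.265).

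Where both proteins were called, their summits lay close together but farther apart than repeated calls of the same protein. The median distance between the dCTCF and CP190 summits of a pair was 42 bp in the deletion line (interval 36 to 49, quartiles 16 and 137), and 42 bp again with the second set of calls. Between the 2 sets of calls, the summit of 1 dCTCF peak moved by a median of 12 bp (10 to 14) and that of 1 CP190 peak by 13 bp (13 to 14). Of the 346 pairs, 201 (58.1%, 52.8 to 63.2) had summits at most 50 bp apart and 276 (79.8%, 75.2 to 83.7) at most 200 bp apart. In wild type the median distance was 22 bp (18 to 25), and 318 of 431 pairs (73.8%, 69.4 to 77.7) were at most 50 bp apart. The repeat distance of dCTCF summits was 12 bp in the deletion line and 14 bp in wild type, and that of CP190 summits was 13 bp in both. Over the peaks with a partner alone, it was 9 bp for dCTCF in both genotypes, and 10.5 bp in the deletion line and 10 bp in wild type for CP190. The part of summit placement in the wider spacing was not tested.

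**Figure D3:**
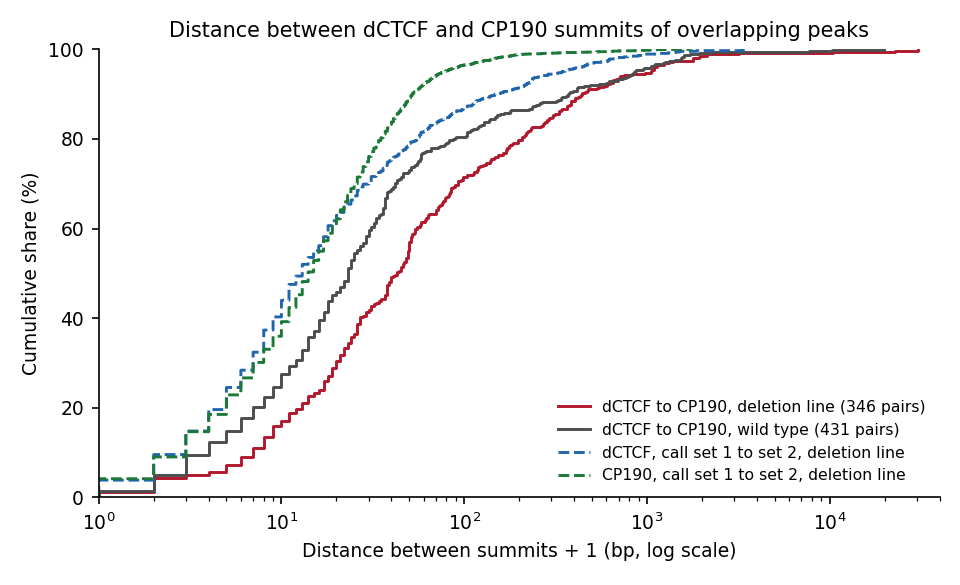
Cumulative share of summit distances, in percent, against the distance plus 1 in bp on a log scale, for dCTCF to CP190 in the 346 pairs of the deletion line (red) and the 431 pairs of wild type (grey), and for the same peak between its 2 sets of calls in the deletion line (dashed, dCTCF blue and CP190 green). The red curve reaches 50% at 42 bp, the grey one at 22 bp and the dashed ones at 12 and 13 bp.

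The distance between called summits went with the strength of dCTCF. How exactly dCTCF summits were placed was not summarised by strength, and its part in this order was not tested. With the deletion-line pairs divided into 4 equal groups from weakest to strongest dCTCF enrichment, the median distance was 170 bp (98 to 223), 40 bp (25 to 53), 28.5 bp (19 to 43) and 25 bp (20 to 37). By CP190 enrichment the medians were 38, 61, 29 and 34 bp, with no steady order. In wild type the groups by dCTCF enrichment had medians of 81, 22, 16.5 and 14 bp, so each was wider in the deletion line. In the strongest group the intervals were 20 to 37 bp (deletion line) and 11 to 17 bp (wild type), and in the other groups they overlapped. They cover counting error only, and the genotypes were not tested against each other.

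To follow the same places in both genotypes, 279 sites were taken at which all 4 lists held overlapping peaks, a set chosen after the lists had been compared. At these sites the median distance from dCTCF to CP190 was 36 bp in the deletion line (26 to 43) and 19 bp in wild type (16 to 23), and it was 33 and 20 bp with the second set of calls. The distance was larger in the deletion line than in wild type at 178 sites, smaller at 93 and equal at 8. With the second set these counts were 175, 96 and 8. The dCTCF summit itself differed between genotypes by a median of 11 bp (10 to 13) and the CP190 summit by 14 bp (12 to 16), against 7 and 10 bp between the sets of calls within the deletion line at the same sites. CP190 held a median place of 1210 of 3164 in the deletion line and 657 of 2517 in wild type, whereas dCTCF held place 169 of 648 and 184 of 700. These lists differ in length, so the places do not show a change in the amount bound.

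At 19 of the 279 sites the summits were over 100 bp apart in the deletion line and at most 50 bp apart in wild type, and 2 sites showed the reverse. The second set of calls gave 14 and 0 such sites, and 9 of the 19 were among them. At the 19 sites the dCTCF summit differed between genotypes by a median of 32 bp and the CP190 summit by 250 bp, with the larger shift in CP190 at 14. Among the 19 was the dCTCF peak at 3L 8715009 to 8751537, a broad block over chorion genes where a single summit says little. There the distances were 10369 bp in the deletion line and 36 bp in wild type, and the CP190 summit differed by 10303 bp. A site on a Y scaffold was also included, with 363 and 4 bp and a CP190 shift of 285 bp. A clear example, chosen after its values were seen, lay partly in Atpalpha, the alpha subunit of the sodium pump, with the dCTCF peak at 3R 20947261 to 20949431 (place 96 of 648). There the 2 summits were 1794 bp apart in the deletion line and 16 bp apart in wild type, and 1815 and 5 bp with the second set. The dCTCF summit differed by 12 bp between genotypes and the CP190 summit by 1790 bp. The CP190 peak held place 450 of 3164 in the deletion line and 413 of 2517 in wild type.

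**Figure D4:**
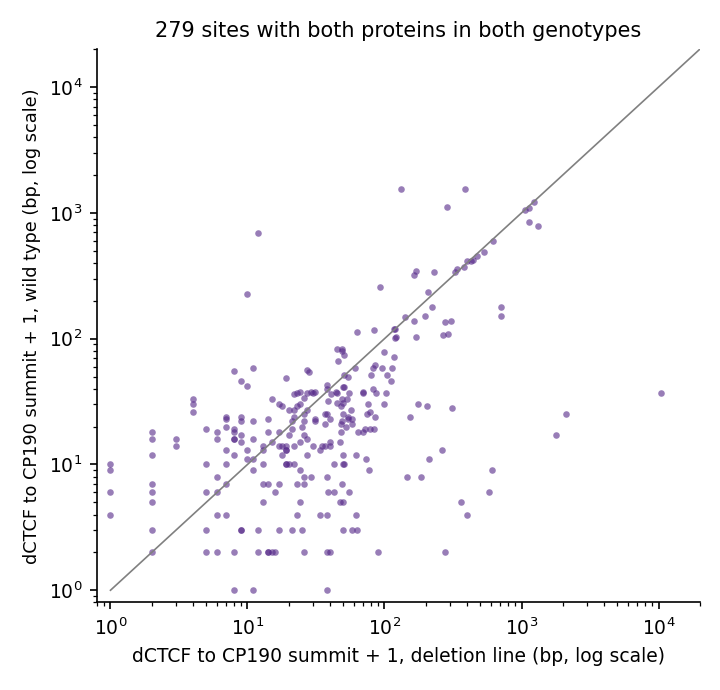
Distance from the dCTCF to the CP190 summit plus 1, in bp on log scales, at the 279 sites with both proteins in both genotypes, in the deletion line (horizontal) and wild type (vertical), with a line of equal distance. There are 178 sites with a larger distance in the deletion line, to the right of the line, and 93 with a smaller one.

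The HA antibody gave a further readout, which the choice of peaks had not used. Of the 648 dCTCF peaks of the deletion line, 493 (76.1%) overlapped an HA peak of that line. The share was 282 of 341 (82.7%, 78.3 to 86.3) for dCTCF peaks with CP190 and 211 of 307 (68.7%, 63.3 to 73.7) for those without. The same control, PI_mouse, served for HA and CP190, and its part in this difference was not tested. In groups 3 and 4 of dCTCF enrichment, every dCTCF peak had an HA peak, both with CP190 (95 and 139 peaks) and without it (67 and 23). In group 2 the shares were 82.4% (69.7 to 90.4) with CP190 and 87.4% (79.9 to 92.3) without. In group 1, 6 of 56 dCTCF peaks with CP190 (10.7%, 5.00 to 21.5) and 24 of 106 without it (22.6%, 15.7 to 31.5) had one. Within each group, the HA share was thus not higher with CP190. The wild-type dCTCF list had a peak at 16 of 56 (28.6%) with CP190 and 30 of 106 (28.3%) without in group 1, against 515 of 648 (79.5%) over the whole list.

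Of the 155 dCTCF peaks without HA, 132 (85.2%) were in group 1, so that HA and dCTCF strength moved together. Of the 493 dCTCF peaks with an HA peak, 282 (57.2%, 52.8 to 61.5) had CP190, and of the 155 without one 59 (38.1%, 30.8 to 45.9). Within groups the order of these shares was turned round, with overlapping intervals: in group 1, 6 of 30 with HA (20%, 9.51 to 37.3) and 50 of 132 without (37.9%, 30.1 to 46.4) had CP190. In group 2 these were 42 of 139 with HA (30.2%, 23.2 to 38.3) and 9 of 23 without (39.1%, 22.2 to 59.2). The median summit distance to CP190 was 34 bp (26 to 39) over 287 pairs with HA and 197 bp (137 to 284) over 59 pairs without. Within groups the intervals overlapped, at 70 bp (8 to 1133, 6 pairs) with HA and 216 bp (137 to 302, 50 pairs) without in group 1, and 76 bp (42 to 152, 43 pairs) and 162 bp (20 to 650, 9 pairs) in group 2. In wild type, 361 of 528 dCTCF peaks with HA (68.4%, 64.3 to 72.2) and 64 of 172 without (37.2%, 30.3 to 44.6) had CP190, with median distances of 18 and 131 bp. Limited to HA-marked peaks, the share with CP190 thus remained below that of wild type, and the distance above it. The HA lists had unlike limits, as the highest global IDR was 0.00998 in the deletion line and 0.0493 in wild type.

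Few of the 307 dCTCF peaks without CP190 lay within 1000 bp of a CP190 peak. Over the 307, the nearest CP190 peak lay at a median of 13680 bp (11220 to 16519), with 10 peaks within 500 bp and 26 within 1000 bp. For the 341 dCTCF peaks with CP190, the nearest CP190 peak other than the partner lay at a median of 11722 bp (9692 to 13622). Of these, 4 had it within 500 bp and 11 within 1000 bp. Neighbouring CP190 peaks were a median of 19981 bp apart. Of the 307, 64 (20.8%, 16.7 to 25.7) overlapped a CP190 peak of wild type, against 316 of the 341 with CP190 (92.7%) and 380 of all 648 (58.6%). A further group of 149 (48.5%, 43.0 to 54.1) had an HA peak but no CP190 peak in either genotype, and 132 of these also had a dCTCF peak in wild type.

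The CP190 peaks without dCTCF formed a population with little sign of dCTCF in the other lists. Of the 2820, 41 (1.45%, 1.07 to 1.97) overlapped an HA peak of the deletion line, against 286 of the 344 with dCTCF (83.1%) and 327 of all 3164 (10.3%). A wild-type dCTCF peak overlapped 80 of the 2820 (2.84%, 2.29 to 3.52), against 301 of the 344 with dCTCF (87.5%). A wild-type CP190 peak was present at 2019 of the 2820 (71.6%, 69.9 to 73.2), against 320 of the 344 with dCTCF (93.0%, 89.8 to 95.3) and 73.9% of all 3164. These CP190 peaks were also weaker, with a median fold enrichment of 7.02 (6.70 to 7.41), against 9.62 (8.45 to 12.0) for those with dCTCF.

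Peaks with and without a partner also differed in width. Partners were defined by overlap of at least 1 bp, which a wider interval reaches more readily. The part of that rule in the difference was not tested. The median dCTCF peak was 1087 bp wide with CP190 (986 to 1187) and 689 bp without (625 to 749). Width went with enrichment, and in group 4 the order was not kept, at 1549 bp with CP190 (1444 to 1632, 139 peaks) and 1604 bp without (1453 to 1924, 23 peaks). In groups 1 to 3 the medians with CP190 were 778, 724 and 866 bp, against 646, 576 and 738 bp without. CP190 peaks were 942 bp wide with dCTCF (860 to 1013) and 790 bp without (771 to 809). Peaks over 3000 bp were rare, at 14 in the dCTCF list and 32 in the CP190 list.

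Chromosome arms differed little. On X 67 of 111 dCTCF peaks had CP190 (60.4%, 51.1 to 69.0) and on 3L 70 of 149 (47.0%, 39.1 to 55.0). The shares on 2L, 2R and 3R were 52.1%, 50% and 53.9%, and all 5 intervals include the overall 52.6%. Chromosome 4 had 2 of 4. Wild type also had its highest share among the large arms on X (69.5%) and its lowest on 3L (57.0%). CP190 covered 2.44% of X and 2.29% of 3L. dCTCF peaks numbered between 4.28 per Mb on 2R and 5.32 per Mb on 3L, and CP190 peaks between 22.4 per Mb on 3L and 26.2 per Mb on X, leaving out chromosome 4, with the length of an arm taken as its last gene end. Among CP190 peaks of the 5 large arms the share with dCTCF lay between 9.44% on 2R and 11.6% on 3L, and chromosome 4 had 2 of 15 (13.3%, 3.74 to 37.9). The lists also held 3 dCTCF and 8 CP190 peaks on Y or unplaced scaffolds, and each of those 3 dCTCF peaks had a CP190 peak.

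**Figure D5:**
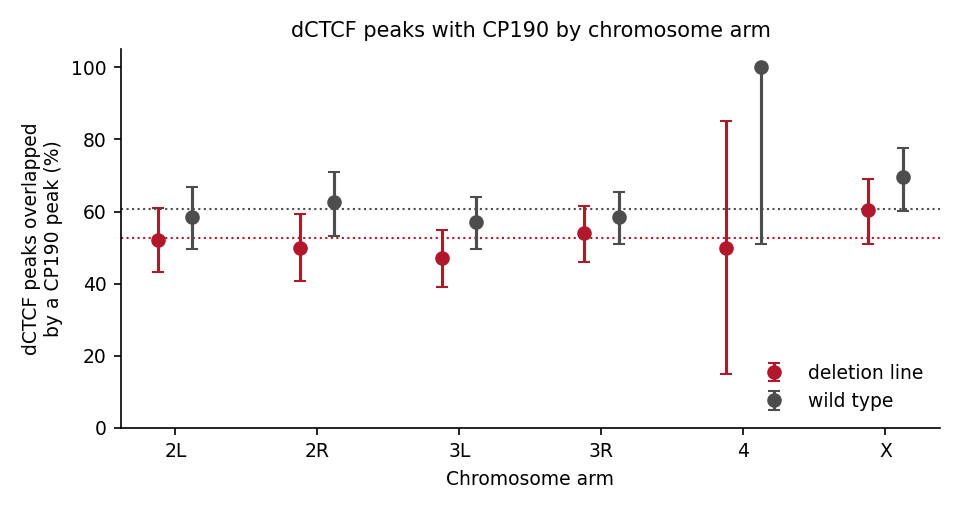
Share of dCTCF peaks with a CP190 peak by chromosome arm, in percent with 95% Wilson intervals, for the deletion line (red) and wild type (grey), with the share over all peaks as dotted lines (52.6% and 60.7%), and chromosome 4 resting on 4 peaks in each genotype. X is highest among the 5 large arms in both genotypes, and the intervals of the arms overlap within each genotype.

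CP190 summits lay near gene ends more often than dCTCF summits. Summits within 200 bp of either end of a protein-coding gene were 222 of the 645 dCTCF summits on the arms (34.4%) and 1624 of the 3156 CP190 summits (51.5%). Strand was not given, so starts and ends of genes were not told apart. CP190 peaks without dCTCF had the highest share, 1475 of 2815 (52.4%, 50.6 to 54.2), against 149 of 341 with dCTCF (43.7%, 38.5 to 49.0). For dCTCF the share was 129 of 338 with CP190 (38.2%, 33.1 to 43.5) and 93 of 307 without (30.3%, 25.4 to 35.7). That order was not the same in every group of dCTCF enrichment. In group 1, 27 of 56 summits with CP190 (48.2%) and 25 of 106 without (23.6%) lay near a gene end, and in group 4 these were 52 of 139 with (37.4%, 29.8 to 45.7) and 14 of 23 without (60.9%, 40.8 to 77.8). dCTCF summits without CP190 fell inside a gene of any kind in 180 of 307 cases (58.6%, 53.0 to 64.0), against 148 of 338 with CP190 (43.8%, 38.6 to 49.1).

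The 3 strongest dCTCF peaks of the deletion line all had CP190. Positions are given on Release 6 (dm6), with gene names from RefSeq. The peak of place 1 lay at X 13562732 to 13564663, partly in Tpst, which codes for a tyrosylprotein sulfotransferase, and partly in CG32633 and CG46311. It had 143-fold enrichment, −log10 p values of 6316 and 5638 in the 2 sets of calls, and a CP190 peak of place 68 whose summit was 69 bp away. At place 2, the peak at 3L 2850981 to 2852887 lay inside Tet, the fly member of the TET dioxygenase family, with 129-fold enrichment and −log10 p values of 5856 and 5377. Its CP190 peak had place 52, with the summit 16 bp away, and no CP190 peak was called there in wild type. The peak of place 3, at X 9777616 to 9779247 and partly in CG1354, had 124-fold enrichment and −log10 p values of 5292 and 4515. Its CP190 partner was only of place 1272 in the deletion line, against 475 in wild type, with summits 10 bp apart. All 3 had an HA peak of place 1 to 6 in the deletion line. In wild type, no HA peak was called at the peaks in Tet and CG1354, where wild-type dCTCF held places 3 and 11. A strong dCTCF peak can thus lack an HA call, and the reason was not tested.

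The 3 strongest dCTCF peaks without CP190 held places 7, 13 and 35 of the list. At 2R 19825317 to 19827202, partly in Toll-7, which codes for a Toll-family receptor, dCTCF had place 7 of 648 with 116-fold enrichment and −log10 p values of 5334 and 4963. No CP190 peak was called there in either genotype and no HA peak in wild type, where dCTCF held place 17, and the nearest of the deletion line was 48658 bp away. At 3L 16710760 to 16712778 the peak lay partly in Lasp, Dab and CG43954, at place 13 with 87.4-fold enrichment. Lasp codes for an actin-binding protein and Dab for the adaptor Disabled. At 2R 11824232 to 11826098, partly in CG13192, dCTCF held place 35 with 65.5-fold enrichment. The Lasp and CG13192 peaks overlapped wild-type CP190 peaks of low rank, places 1773 and 2501 of 2517. HA held places 54, 24 and 59 of 623 at these 3 peaks, so that HA, too, ranked high where CP190 was not called in the deletion line.

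CP190 without dCTCF included the top of the CP190 list. The strongest peak lay at X 3569475 to 3571941, partly in DIP-alpha, an immunoglobulin-superfamily cell-surface protein gene, and inside ppk8, which codes for a channel subunit of the pickpocket family. It had 157-fold enrichment, −log10 p values of 5551 and 5719, and place 8 of 2517 in wild type. The next, at 3R 11764017 to 11765277 partly in Lk6, a protein kinase gene, and partly in l(3)neo38, had 139-fold enrichment. In wild type that place had no CP190 peak and a dCTCF peak of place 475. The following one, of place 4, lay at 2L 1908612 to 1910517 inside Wdr62, a gene for a mitotic spindle protein, with 128-fold enrichment, and held place 14 in wild type. All 3 had a global IDR of 0.00783 to 0.00953, near the limit of 0.01.

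The 3 pairs with the largest summit distances belonged to 1 dCTCF peak. It covered 36529 bp at 3L 8715009 to 8751537, over the chorion genes Cp15, Cp16, Cp18 and Cp19, which code for eggshell proteins and are known to be amplified in ovarian follicle cells, and over Prm, the paramyosin gene. It held place 113 with 36.0-fold enrichment and overlapped 3 CP190 peaks, 20532, 7125 and 1538 bp wide, whose summits were 10369, 22623 and 30256 bp from that of dCTCF. In wild type the region was covered by separate dCTCF peaks, with widths of 24372 and 13294 bp. A single summit says little about a block of this width. Without peaks over 3000 bp in either list, the share of dCTCF peaks with CP190 and the median distance stayed within the intervals given above.

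In the bithorax complex, 7 dCTCF peaks were called between Ubx and Abd-B in the deletion line, and 3 of them had CP190, where 52.6% of all dCTCF peaks did. The peak inside Abd-B at 3R 16969318 to 16970461 was of place 37 for dCTCF and 169 for CP190, with summits 22 bp apart, and that inside lncRNA:iab8 at 3R 16868933 to 16869717 was of place 119 and 2576, 26 bp apart. A weak dCTCF peak (place 402 of 648) at 3R 16798453 to 16799176, in the stretch from Glut3 to lncRNA:CR45750, overlapped the CP190 peak of place 3 of 3164, 217 bp from summit to summit. The 4 without CP190 ranked 315, 370, 379 and 648. Wild-type CP190 peaks of place 112, 554 and 2139 overlapped the dCTCF peaks of place 37, 119 and 370. None overlapped the others, among them the peak of place 402. In the other homeotic cluster, Antp had 3 dCTCF peaks within 1000 bp, of which those of place 87 and 231 overlapped CP190 peaks of place 196 and 1100, and that of place 496 overlapped none. Over the 8 homeotic genes, 2 had a dCTCF peak and 4 a CP190 peak in or within 1000 bp, with Ubx and pb carrying CP190 alone, against 6.30% and 31.3% of all protein-coding genes of the arms. A longer gene has more room for a peak, and gene length was not taken into account.

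The other gene lists were counted in the same way, against 6.30% of the 13922 protein-coding genes of the arms with a dCTCF peak in or within 1000 bp, 31.3% with a CP190 peak and 4.33% with both. Among 92 ribosomal protein genes, 60 had CP190 (65.2%) and 9 had dCTCF (9.78%), with 8 having both. RpS28a and RpS21 carried the strongest dCTCF peaks among them, of place 14 and 23, and both overlapped CP190, of place 629 and 190. RpL17 and RpL30 carried the strongest CP190 peaks, of place 84 and 86, without dCTCF. Of 21 genes for insulator and architectural proteins, 10 had CP190 (47.6%) and 1 had dCTCF (4.76%). The gene with dCTCF was pzg, which codes for the interband protein Z4, with a dCTCF peak of place 115 over a CP190 peak of place 1992. The genes of the partner proteins themselves were mixed, as su(Hw) had a CP190 peak of place 222, BEAF-32 one of place 2016 and pita one of place 2309, and CTCF and Cp190 had no peak of either protein.

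Among the 14 Polycomb group genes, whose products maintain gene silencing, 3 had CP190 (21.4%) and none had dCTCF. Pc, which codes for the chromodomain protein Polycomb, had a CP190 peak of place 506. Those of esc and Pcl, both of the PRC2 complex, held places 2085 and 2765. Of the 9 chorion genes, Cp15, Cp16, Cp18 and Cp19 lay under the 1 broad block described above, and Cp7Fb and Cp7Fc shared a CP190 peak of place 919 on X. These lists are small, neighbouring genes share peaks, gene length was not taken into account, and no test was made on them.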

How the data were processed

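The authors deposited 1 peak list for each antibody and genotype, without a header and with 20 columns in the layout of the IDR tool. Per the submitters' processing notes, cutadapt, Bowtie2, Picard and deepTools were used, and the peak caller is not given in the sources used here. Among the deposited columns, enrichment at a peak is the authors' linear ratio (fold) to the control, and p and IDR are −log10 values. The notes name dm6 and dm3, and scaffold names and the extent of 3R are those of dm6.

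Summits are the interval start plus the deposited offset. Peaks were shared when they overlapped by 1 bp or more. Gene ends are those of RefSeq (Release 6 plus ISO1 MT), which was used without strand, and sequences were not used here. Genes were therefore counted by either end, as planned for that case, and the planned motif counts were not run. The overlap code was tested on simulated lists and gave the same counts as bedtools 2.31.1 in 30 of 30 pairs of lists. Of 22 insulator and architectural symbols, 21 matched the table.

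Named peaks were the 3 strongest dCTCF peaks with and without CP190, the 3 strongest CP190 peaks without dCTCF, the 3 pairs farthest apart, dCTCF peaks from Ubx to Abd-B, and peaks within 1000 bp of listed genes (for ribosomal protein genes the 2 strongest per protein). Peaks, lists and settings were chosen with earlier results of these data known. The scripts ran on Python 3.11.15 with scipy 1.17.1, pandas 2.3.3, numpy 2.4.6 and matplotlib 3.10.9.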

Additional observations from a re-analysis of the deposited data

How the results depend on the processing

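No paired analysis was possible because each list joins both replicates. For the same reason no replicate could be left out, and depth limits which weak peaks were listed. Of 66 alternative values, 39 stayed within the interval of the main value and 27 did not. The cause was not tested. Requiring summits at most 200 bp apart gave 42.6% of dCTCF peaks with CP190 and 8.72% of CP190 peaks with dCTCF, 42.02% on 2L, 38.3% on 3L and 38.96% on 3R, 17.3%, 22.2% and 78.4% in groups 1, 2 and 4 of dCTCF enrichment, and HA at 89.1% of dCTCF peaks with CP190. The strongest 50% of both lists gave 46.3% and 9.61%, a summit distance of 25 bp, and dCTCF widths of 1323 bp with and 1018 bp without CP190. A CP190 list cut to the length of the dCTCF list gave 16.98% in both directions, and lists without their strongest 10% gave 42.4% and 8.78%. A global IDR of at most 0.01 gave HA at 90.7% of dCTCF peaks with and 80.6% without CP190. A distance of 500 bp to gene ends gave 57.7% and 43.97% for dCTCF with and without CP190, and 61.3% and 64.3% for CP190 with and without dCTCF. Alternatives added after the data were seen were the second set of calls, lists without peaks over 3000 bp (52.6% became 51.6% and 42 bp became 39 bp), dCTCF peaks with HA (57.2% and 34 bp), and, of the 279 sites, the 50% with the strongest dCTCF (25 bp, against 15 bp in wild type). Among 39 values for named dCTCF peaks, 1 changed, as the peak between Glut3 and lncRNA:CR45750 has no CP190 summit within 200 bp.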
